A study of Homo sapiens with 6 samples.

Results

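The genes described here encode the constitutive proteasome. They are the 34 symbols of the count table, out of 25330, that carry the names PSMA1 to PSMA7, PSMB1 to PSMB7, PSMC1 to PSMC6 or PSMD followed by a number. By role 14 belong to the core particle and 20 to the regulatory particle. Of the latter, PSMD5, PSMD9 and PSMD10 share the name but are chaperones that help to assemble the base. The libraries, from poly-A RNA of the established triple-negative breast cancer line MDA-MB-231, were 3 controls labelled CTRV2 and 3 libraries labelled RNASEH2A KO, named RN1 in their titles. RNASEH2A encodes the catalytic subunit of RNase H2, which cuts RNA out of RNA-DNA hybrids. No agent was added to either group, each group's RNA came from different passages, and the labels do not say whether RN1 is 1 clone.

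The proteasome is the protease that degrades most ubiquitin-tagged proteins of the cytosol and nucleus. Its core particle is a barrel of stacked rings, with alpha subunits that form the gate and beta subunits that form the chamber. Of the beta subunits PSMB5, PSMB6 and PSMB7 carry the active sites. The regulatory particle caps the barrel: the PSMC ATPases of its base unfold the substrate, and the lid removes ubiquitin. Its peptides also feed antigen presentation, and interferon induces PSMB8, PSMB9 and PSMB10, which replace the constitutive catalytic subunits. When proteasome activity is short, the factor NFE2L1 raises transcription of most subunit genes together.

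Library totals ran from 25419877 to 31596286 counts, and 33 of the 34 members passed the count filter. RNASEH2A was counted 10, 6 and 15 times in controls and 7, 8 and 16 times in knockouts (exact two-sided permutation p = 0.8, where 0.1 is the smallest possible), so its count does not check the labels. In GENCODE 29, 40.8% of the bases of its principal transcript are shared with other genes on its strand, of which THSD8 overlaps most. Whether this lowers its count was not tested. Of the lists of cell type markers, the summed level of 5 genes high in this line was 5297 to 5621 CPM (counts scaled to library size) in controls and 5055 to 5251 in knockouts. ESR1, the oestrogen receptor, had no count in any library, and the 3 counted leukocyte markers together stayed at or under 0.3968 CPM. The summed luminal markers were at 34.26 to 38.51 CPM in controls and 29.77 to 34.01 in knockouts, nearly all of it GATA3. The summed endothelial markers were at 3.442 to 4.047 CPM in controls and 2.492 to 5.135 in knockouts. Among replicate pairs, knockout replicates 1 and 2 differed most, with a chi-square of 36.97 per degree of freedom against 2.478 for control replicates 2 and 3. Control replicate 1 differed from control replicates 2 and 3 by 12.11 and 10.78. Knockout replicate 1 is therefore followed separately below.

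Most constitutive subunit genes had slightly lower levels in the knockout, and few passed the test. Of the 33 tested members 0 rose and 2 fell, PSMD13 and PSMD5, where 5.88% of all tested genes rose and 6.22% fell (12.1% in either direction, edgeR quasi-likelihood test, adjusted p under 0.05). The share of members called lower, 6.06%, was close to that background. Beside the count of 0, 12 members had an unadjusted p under 0.05 in either direction, against 27.7% of all tested genes, and DESeq2 and limma-voom likewise called 0 higher and each called 3 lower. In bulk RNA, less transcript in each cell and fewer cells that express the gene cannot be told apart. Log2 fold changes ran from -0.41 to 0.24, and 24 of the 33 were below 0, or 72.7%, against 49.4% of all tested genes. The median was -0.09 for the members and 0.0035 for all tested genes. At a mean of at least 50 CPM, which holds 30 members, the median was -0.10 for members and -0.02 for the 4850 genes of that level. There 76.7% of members and 53.9% of genes were below 0, and the median absolute log2 fold change was 0.105 and 0.124. Fold changes within 10% of the control level were seen in 20 members, or 60.6%, against 43.9% of all tested genes. That last share was not matched for level. Knockout libraries all lay below the controls in 13 members (39.4%, where 17.4% of all tested genes did so) and all above in 3 (9.09%, where 16.1% did so). With the replicate number as a block 1 member was called higher (PSMD7) and 8 lower, where 21.8% of all tested genes were called. Of these 8, PSMA4, PSMA5, PSMB1 and PSMB7 belong to the core and PSMC3, PSMD5, PSMD12 and PSMD13 to the regulatory particle.

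**Figure D1:**
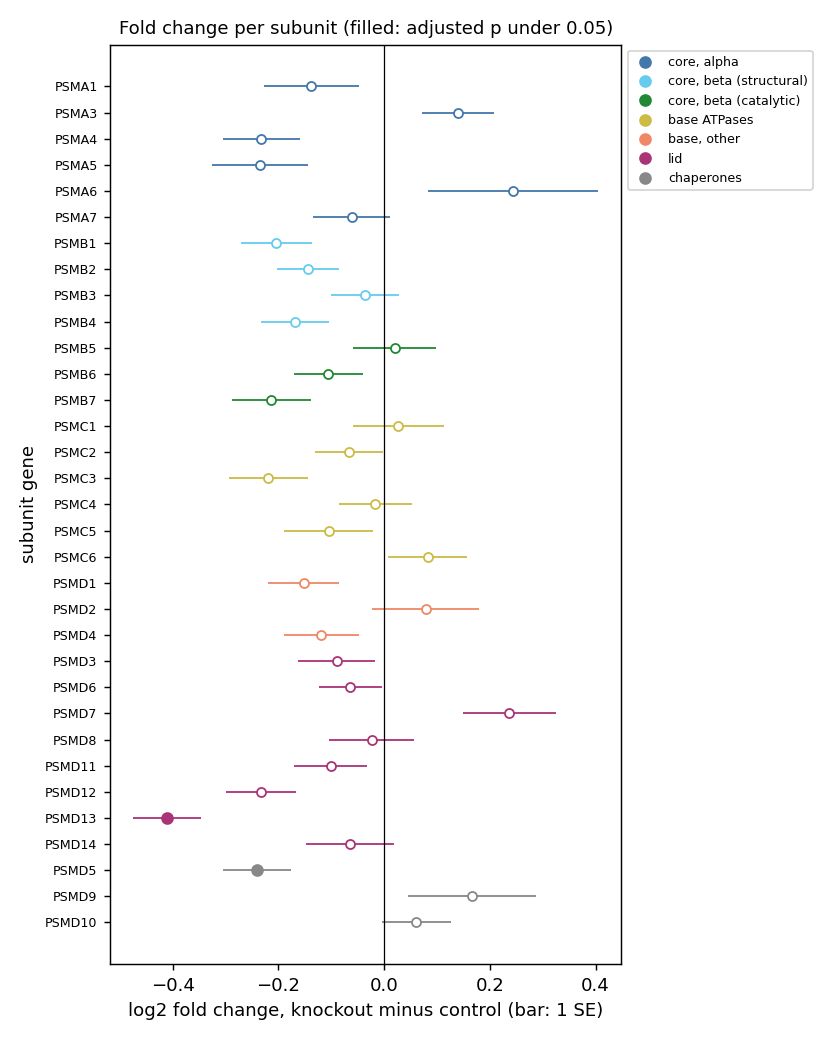
Log2 fold change of each tested subunit gene, knockout minus control, on the x axis, with bars of 1 standard error and colours by role. Filled points mark PSMD13 and PSMD5, the 2 members with an adjusted p under 0.05, and most points lie left of 0 between -0.41 and 0.24.

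The core particle was lower than the regulatory particle in median. The 13 tested core members had a median of -0.14, with 10 below 0, and the 20 members of the regulatory particle a median of -0.07, with 14 below 0. The difference between the particles was not tested, and its order turned when chromosomal neighbours were taken into account, as given below. The summed level of the core members was 2325, 2318 and 2279 CPM in controls and 1961, 2239 and 2168 in knockouts. All knockout libraries were thus below all controls in the core sum. The sum of the regulatory members was 3920, 4036 and 4040 CPM in controls and 3447, 4131 and 3927 in knockouts, and these ranges overlapped. The ratio of the core sum to the regulatory sum averaged 0.577 in controls (SD 0.0147, n = 3) and 0.554 in knockouts (SD 0.0136, n = 3), with overlap, since knockout replicate 1 stood at 0.5689 and control replicate 3 at 0.5641. The overlap of the regulatory sums rested on PSMD2, which alone made up 962 CPM of that sum in controls. The ratio of the particles was taken only with PSMD2 included. Without PSMD2 the regulatory sum was 3014, 3050 and 3044 CPM in controls and 2601, 2984 and 2872 in knockouts. All knockouts were then below all controls, with a log2 ratio of the means of -0.11 against -0.12 for the core sum. The sums of the base ATPases (984 to 992 CPM in controls, 845 to 980 in knockouts) and of the lid (1461 to 1482 CPM and 1258 to 1453) did not overlap either.

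Knockout replicate 1 had the lowest level of the 6 libraries in 25 of the 33 members, or 75.8%, against 22.7% of all tested genes. This held for 11 of the 13 core members and 14 of the 20 regulatory members. Subunit genes took 0.5496% of all counts there, against 0.6089% to 0.6346% in the other 5 libraries. As the median deviation of its members from the control mean on the log2 scale, the core particle stood at -0.19, -0.07 and -0.13 in knockout replicates 1, 2 and 3. The regulatory particle stood at -0.20, 0.02 and -0.05. Both particles were thus about equally low in replicate 1, and in the other 2 knockout libraries the core was the lower of them. Without replicate 1 the fitted median was -0.11 for the core and -0.02 for the regulatory particle. In that fit 2 members were called higher, PSMD2 and PSMD7, and 3 lower, PSMD5, PSMD12 and PSMD13, where 11.3% and 12.5% of all tested genes were called. Both remaining knockout libraries lay below all controls in 13 members (39.4%, against 26.5% of all tested genes), and above all controls in 7 (where 25.8% did so). Of the 3 counted fibroblast markers, COL1A2 and PDGFRB were also highest in knockout replicate 1, at 56.03 and 27.22 CPM against at most 39.19 and 15.76 elsewhere, and COL1A1 was at 9.125. The summed list was at 48.7 to 52.01 CPM in controls and 45.14 to 92.38 in knockouts, and its part in the results was not tested.

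**Figure D2:**
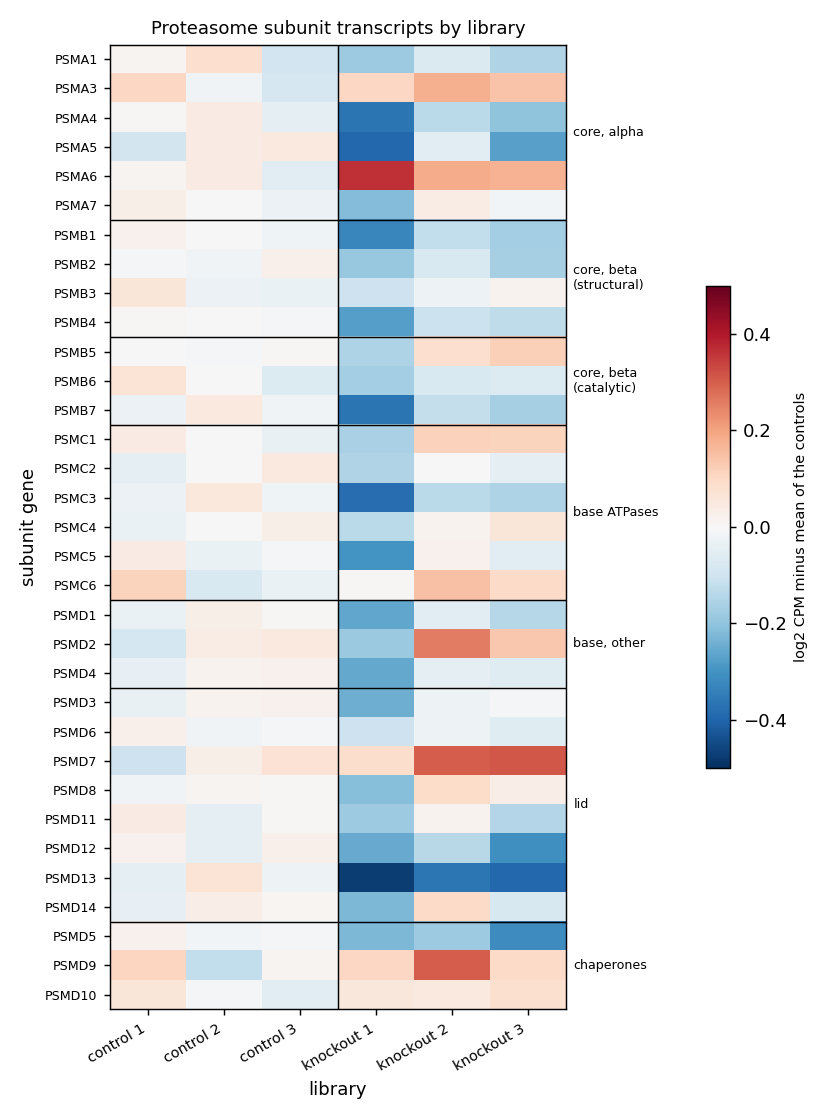
Heat map of log2 CPM minus the mean of the 3 controls, with subunit genes in rows by role and libraries in columns. The column of knockout replicate 1 is the lowest for 25 of the 33 genes, while PSMD13 and PSMD5 are low in all 3 knockout libraries.

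No core member passed edgeR without the block, DESeq2 or limma-voom: 0 of 13 were called, where edgeR called 12.1% of all tested genes. An unadjusted p under 0.05 was seen in 6 core members, against 27.7% of all tested genes. With the block edgeR called 4 lower, where 21.8% of all tested genes were called in either direction. The adjusted p with the block was 0.019 for PSMA5, 0.0213 for PSMA4, 0.0241 for PSMB7 and 0.0331 for PSMB1. The alpha subunits held both extremes of the core. PSMA5 (chromosome 1, 109399042 to 109426448, minus strand, GRCh38.p14) had the lowest core value, at 160.6, 176.1 and 177.0 CPM in controls and 130.1, 164.6 and 141.9 in knockouts. Knockout replicate 2 lay above control replicate 1, so the groups overlapped. Its log2 fold change was -0.23 ± 0.09 SE (edgeR adjusted p = 0.123), and it passed without knockout replicate 2 (0.0354). PSMA6 (chromosome 14, 35278558 to 35317493) had the highest, at 3.54, 3.61 and 3.37 CPM in controls and 4.52, 3.99 and 3.96 in knockouts. The groups did not overlap, but the value rests on 85 to 145 counts a library (0.24 ± 0.16 SE, adjusted p = 0.364). The exons it shares with another gene model are described below. PSMA3 was also above 0, at 0.14, and PSMA1, PSMA4 and PSMA7 lay between -0.23 and -0.06.

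The catalytic beta subunits did not pass the test without the block. PSMB5, the chymotrypsin-like subunit (chromosome 14, 23025851 to 23035220, minus strand), was at 145.0, 144.1 and 145.5 CPM in controls and 130.1, 153.6 and 157.2 in knockouts. The controls were tightly grouped, and the knockouts spread to both sides of them (0.02 ± 0.08 SE, adjusted p = 0.895). PSMB6, the caspase-like subunit (chromosome 17, 4796164 to 4798495), was at 151.6, 144.9 and 138.2 CPM in controls and 128.5, 137.4 and 138.1 in knockouts. The highest knockout library lay just under the lowest control (-0.11 ± 0.07 SE, adjusted p = 0.329). PSMB7, the trypsin-like subunit (chromosome 9, 124353465 to 124415442, minus strand), was at 224.1, 237.1 and 226.0 CPM in controls and 177.8, 210.8 and 204.1 in knockouts. All knockouts were below the controls, and replicate 1 was the lowest (-0.21 ± 0.07 SE, adjusted p = 0.0944). Of the 4 structural beta subunits PSMB1 to PSMB4, 0 passed without the block, and all were below 0 (-0.20 to -0.04). All knockouts lay below all controls in PSMB1, PSMB2 and PSMB4, where 17.4% of all tested genes did so.

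In the base, 0 of 9 members passed in edgeR, DESeq2 or limma-voom, where edgeR called 12.1% of all tested genes. An unadjusted p under 0.05 was seen in 2 of them, against 27.7% of all tested genes. The 6 ATPases PSMC1 to PSMC6 ran from -0.22 for PSMC3 to 0.08 for PSMC6, with a median of -0.04, and only PSMC3 was lower in all knockout libraries than in all controls. Of the other base subunits, PSMD1 was at -0.15, the ubiquitin receptor PSMD4 at -0.12 and the scaffold PSMD2 at 0.08, each short of the threshold.

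The lid held both extremes of the regulatory particle. PSMD13, a structural lid subunit (chromosome 11, 236976 to 252984), was at 178.7, 193.2 and 181.0 CPM in controls and 132.6, 143.2 and 140.3 in knockouts. The lowest control was well above the highest knockout. PSMD13 fell by 0.41 on the log2 scale (SE 0.06, edgeR adjusted p = 0.00426), and it passed with every library left out in turn. PSMD12, another structural lid subunit, was singled out after its values were seen. It was at 157.4, 150.4 and 157.6 CPM in controls and 130.2, 140.8 and 125.3 in knockouts, without overlap, and missed the threshold narrowly (-0.23 ± 0.07 SE, adjusted p = 0.05004 with edgeR, 0.0268 with DESeq2 and 0.0495 with limma-voom). PSMD7, a lid partner of the deubiquitinase PSMD14 (chromosome 16, 74296814 to 74306288), was at 45.5, 49.8 and 51.3 CPM in controls and 52.0, 60.3 and 60.6 in knockouts. It was above 0 in value but did not pass (0.24 ± 0.09 SE, adjusted p = 0.111, and 0.0108 without knockout replicate 1). The other 5 lid members, PSMD14 among them at -0.06, lay between -0.10 and -0.02.

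Of the 3 base chaperones PSMD5 fell. PSMD5 (chromosome 9, 120816053 to 120842922, minus strand) was at 112.2, 109.6 and 110.2 CPM in controls and 94.7, 97.5 and 88.9 in knockouts. Here the 3 knockouts were close together, and replicate 1 was in their middle (-0.24 ± 0.06 SE, adjusted p = 0.0387). The call ended without any 1 control library (0.102, 0.135 and 0.146 without replicates 1, 2 and 3) or without knockout replicate 3 (0.167), and with no filter on low counts (0.0657). PSMD9 and PSMD10 were at 0.17 and 0.06 and did not pass.

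Several subunit genes shared the direction of the genes beside them on the chromosome. For each member the median log2 fold change of up to 10 nearest tested genes on either side was taken. Near chromosome ends there were fewer, 13 in all for PSMD13 and 12 for PSMB1. Over the 33 members it correlated with the member's own fold change at Pearson's r = 0.644 (Spearman's rho 0.633), against 0.234 (0.329) over 14169 tested genes. This is a description across genes, which share the 6 libraries and are not independent. The 14169 genes were not matched to the members for level. PSMD7 lay among neighbours at a median of 0.38 on chromosome 16, and with this subtracted it stood at -0.12 (adjusted p = 0.459). PSMB5 lay among neighbours at 0.27 and stood at -0.30 after subtraction, where it was called lower (adjusted p = 0.028). PSMB7, with neighbours at -0.21, moved to 0.03 (adjusted p = 0.893), and PSMB1, with neighbours at -0.22, also to 0.03. PSMD13 kept its call, at -0.28 (adjusted p = 0.0334) beside neighbours at -0.15. PSMD12 was called lower, at -0.31 (adjusted p = 0.0216), and PSMD5 was not (-0.19, adjusted p = 0.111). After subtraction 0 members were called higher and 3 lower, where 6.58% of all tested genes were called, and the core and regulatory medians were -0.07 and -0.09. The order of the particles was therefore reversed. Whether these stretches differ in DNA copy number was not tested.

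**Figure D3:**
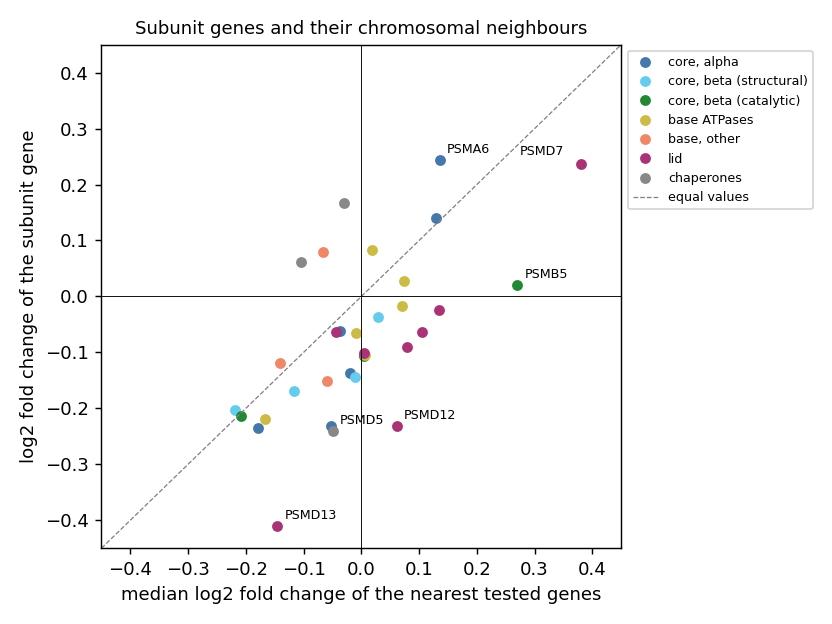
Log2 fold change of each tested subunit gene (y axis) against the median of its nearest tested neighbours on the chromosome (x axis), coloured by role, with the dashed line at equal values. PSMD7 and PSMB5 sit among raised neighbours (0.38 and 0.27), and PSMD13 and PSMD12 lie well below the line.

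Levels per transcript length differed widely between subunits that share a complex. Among the 30 members whose principal GENCODE 29 transcript shares no exon with another gene on its strand, control levels ran from 18.0 CPM per kb for PSMC1 to 407 for PSMA7, with a median of 93.9. PSMD2, which was the highest in CPM, had 279 CPM per kb. The transcript lengths come from GENCODE 29, and the annotation behind the counts is not known here. The other 4 members, PSMA1, PSMA2, PSMA6 and PSMD9, were the lowest of all, from 0.0690 to 14.6 CPM per kb. They share 53.2%, 52.5%, 81% and 43.8% of their principal exonic bases with another gene model on the same strand. PSMA2 was counted 6, 3 and 0 times in controls and 9, 6 and 0 times in knockouts and was not tested. At 0, the limit of 3 counts stands for 0.118 CPM in control replicate 3 and 0.107 in knockout replicate 3, which covers counting error only. PSMA2 and PSMA6 encode subunits that every core particle needs. Their values are the counts assigned to these symbols, and whether reads in shared exons were discarded was not tested. Without PSMA1 and PSMA6 the core median was -0.14.

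**Figure D4:**
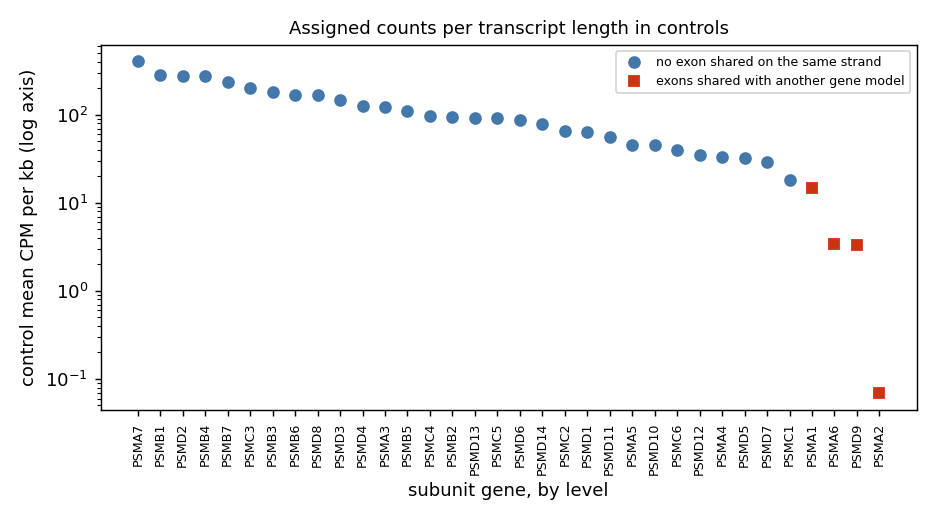
Mean of the counts assigned to the 34 subunit genes in the 3 controls, in CPM per kb of principal transcript on a log axis, ordered from high to low. The 4 genes with exons shared with another gene model on the same strand (squares) are the lowest, at 14.6 CPM per kb or less.

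The promoters were searched for the core letters of the antioxidant response element, TGACNNNGC, which NFE2L1 and NFE2L2 bind, since these factors raise subunit genes together. RefSeq windows (GRCh38.p14, 250 bases before to 50 after a start) matched 29 of the 34 members with 35 windows. On either strand the letters stood in 9 windows of 9 genes, or 25.7% of windows, against 13.3% of all 35116 windows and 14.6% of those of tested genes. A gene can have windows at several annotated starts, and for PSMA4 and PSMC5 the match precedes a start that lies inside the gene, downstream of its first. Stretches that lie wholly before such a start, except those of PSMD9, are printed on the strand of the motif, with the motif in capitals. The distance to the start is counted from the motif's first base on the gene's strand.
PSMA4, 126 bases before a start inside the gene (chr15:78540650-78540678): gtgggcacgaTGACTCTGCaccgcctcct
PSMB3, 104 bases before (chr17:38752627-38752655): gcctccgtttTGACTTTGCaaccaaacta
PSMC5, 57 bases before a start inside the gene, antisense (chr17:63827654-63827682): agggcggcgcTGACACAGCagatccggtc
PSMD3, 37 bases before (chr17:39980760-39980788): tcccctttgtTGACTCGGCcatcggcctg
PSMD5, 134 bases before, gene on the minus strand (chr9:120843038-120843066): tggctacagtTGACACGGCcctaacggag
PSMD12, 165 bases before, gene on the minus strand (chr17:67366724-67366752): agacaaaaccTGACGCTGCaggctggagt

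PSMD9 held 2 further matches before its start, and PSMC4 and PSMD1 matched only outside the stretches printed. The 9 genes with the letters had a median log2 fold change of -0.10, and the 19 tested genes whose windows lacked them -0.06. Those printed ranged from -0.24 for PSMD5 and -0.23 for PSMD12 and PSMA4 to -0.04 for PSMB3. Of those not printed, PSMD9 was above 0, at 0.17, and PSMC4 and PSMD1 were at -0.02 and -0.15. NFE2L1 itself was at 312 ± 13.1 CPM in controls and 353 ± 21.9 in knockouts (0.18 ± 0.07 SE, edgeR adjusted p = 0.117). It passed without knockout replicate 1 (0.00917) and with the replicate block (0.04305), and NFE2L2 did not pass (0.06, adjusted p = 0.617). Of the 8 genes on the list of transcription regulators, NFE2L1 and NFE2L2 among them, 0 passed in the main fit, against a background of 12.1%. An unadjusted p under 0.05 was seen in 3, against 27.7% of all tested genes, and DESeq2 and limma-voom also called 0. Their fold changes were above 0 in 7 of the 8, where 49.4% of all tested genes were below 0.

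Of 8 other motifs searched on both strands, CCGGAAG, an ETS site, stood in 31.4% of member windows against 16.6% of those of tested genes and 10.3% of all windows. AANATGGC, a YY1 site, stood in 31.4% against 8.9% and 6.58%, and the palindromic site of nuclear respiratory factor in 20% against 9.8% and 5.78%. CCAAT stood in 45.7% against 34.3% and 34.6%, GGGCGG in 65.7% against 65.7% and 45%, and TATAAA in 11.4% against 6.25% and 11.5%. CACGTG stood in 5.71% against 9.12% and 7.26%, and TGACGTCA in 0 windows against 2.81% and 1.85%. TGACNNNGC and TGACGTCA can share their first letters. These are matches of letters, and binding was not measured.

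Of the 3 inducible catalytic subunits 2 rose, against 5.88% of all tested genes. PSMB9 was at 56.9, 58.4 and 54.5 CPM in controls and 72.2, 79.3 and 74.4 in knockouts, and PSMB10 at 12.2, 13.3 and 13.4 against 16.3, 16.8 and 18.3. Both rose without overlap, by 0.41 ± 0.07 SE (adjusted p = 0.00659) and 0.40 ± 0.10 SE (adjusted p = 0.0298) on the log2 scale. PSMB9 missed the threshold without control replicate 3 (0.0522). PSMB10 passed only with all libraries or without knockout replicate 1, and its adjusted p was 0.0504 to 0.133 without any other library. PSMB8, at 89.9, 105.7 and 101.6 against 107.6, 139.9 and 129.2 CPM, did not pass (0.34 ± 0.10 SE, adjusted p = 0.0603, 0.0225 with DESeq2 and 0.0016 without knockout replicate 1). The ratio of counts within a library needs no scaling. PSMB9 stood at 0.375, 0.403 and 0.394 of PSMB6 in controls and at 0.562, 0.577 and 0.539 in knockouts, a difference of 0.52 on the log2 scale. PSMB8 stood at 0.620, 0.734 and 0.698 of PSMB5 in controls and 0.827, 0.911 and 0.822 in knockouts, a difference of 0.32. PSMB10 stood at 0.0545, 0.0559 and 0.0594 of PSMB7 in controls and 0.0916, 0.0796 and 0.0896 in knockouts, a difference of 0.62. All 3 ratios were higher in every knockout library than in every control, knockout replicate 1 included. The exact two-sided permutation p was 0.1 for each, also adjusted over the 3, which is the smallest that 3 against 3 can give. PSMB10 shares 45.3% of its principal exonic bases with another gene model, and its neighbours on chromosome 16 had a median of 0.31. With neighbours subtracted PSMB9 and PSMB10 were at 0.32 and 0.11 (adjusted p = 0.0619 and 0.600). PSMB8 (chromosome 6, 32840717 to 32844679) and PSMB9 (32854192 to 32859851) lie close together, and only the gene itself was left out of its neighbours. Subtraction can thus take away part of a change that both genes share. With neighbours subtracted from both subunits of a pair, an alternative chosen after seeing the data, the difference was 0.57 for PSMB8 to PSMB5 and 0.41 for PSMB9 to PSMB6, without overlap. For PSMB10 to PSMB7 it was 0.08, and the groups overlapped.

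**Figure D5:**
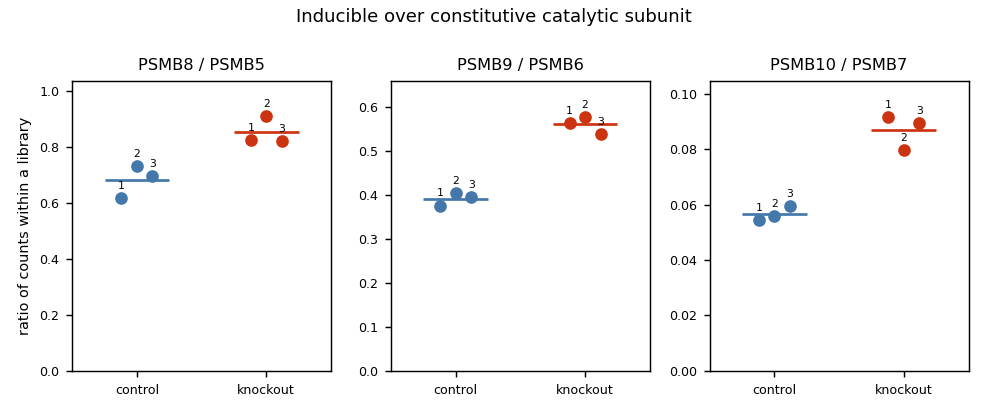
Ratio of counts of each inducible catalytic subunit to its constitutive counterpart in the 6 libraries, numbered by replicate, with bars at the group mean and the y axis from 0. The knockout points lie above the control points in all 3 panels, for PSMB9 to PSMB6 at 0.539 to 0.577 against 0.375 to 0.403.

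Around the particle, of 44 other proteasome genes tested, the inducible subunits included, 3 rose and 7 fell, against 12.1% of all tested genes in either direction. Among activators and inhibitors, PSME1, a subunit of the interferon-induced activator, rose from 158 ± 5.78 to 195 ± 6.50 CPM (0.31 ± 0.06 SE, adjusted p = 0.0128). The inhibitor PSMF1 fell from 158.3 ± 1.10 to 119.9 ± 4.68 CPM (-0.40 ± 0.06 SE, adjusted p = 0.00356). Of 6 further assembly factors, POMP, PSMG1 to PSMG4 and PAAF1, 0 passed in edgeR, DESeq2 or limma-voom, where edgeR called 12.1% of all tested genes. All were below 0, where 49.4% of all tested genes were, with POMP at -0.23 (edgeR adjusted p = 0.0739). An unadjusted p under 0.05 was seen in 1, against 27.7% of all tested genes. Of the 6 proteins that associate with the particle 3 fell, against 6.22% of all tested genes. They were the deubiquitinase UCHL5 (-0.36), the ubiquitin ligase UBE3C (-0.25) and the adaptor ECPAS (-0.29). Among the ubiquitin and delivery genes RAD23B, a shuttle receptor for ubiquitin-tagged proteins, fell (-0.23, edgeR adjusted p = 0.0344). The subunits ADRM1 and SEM1, which carry other names, were at 0.16 and -0.05 and did not pass. PSMB11 of the thymus had 2 counts in 1 library. PSMF1 passed with every library left out in turn. PSME1, UCHL5, UBE3C, ECPAS and RAD23B did not pass without knockout replicate 3 (adjusted p = 0.071, 0.098, 0.111, 0.0874 and 0.157) or without control replicate 2 or 3 (0.0667 to 0.153), and UBE3C and RAD23B also not without control replicate 1 (0.058 and 0.0786). All 10 called genes had neighbours of the same sign, as did 21 of the 33 members. The share over all tested or all called genes was not taken. With the neighbour median subtracted 0 of these 10 were called, whereas 804 of the 1718 genes called over the whole table were. These sets were not matched for size of change. For PSMB9 and PSME1 the neighbours could include PSMB8 and PSME2. Absolute log2 fold changes reached 0.45 among the other proteasome genes and 9.28 over all tested genes.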

How the data were processed

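Strand-specific poly-A libraries of 3 controls and 3 RNASEH2A knockouts were analysed. The submitters' processing notes name FastQC, STAR version 2 and the build GRCh38. Which tool and annotation gave the counts, and with which strand setting, is not given in the sources available. The authors deposited raw read counts per gene symbol, used for all main results, and log2 CPM values for 15066 genes, used for 1 alternative.

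Genes were kept by filterByExpr (14199), scaled by TMM and tested with the quasi-likelihood F test of edgeR 4.0.16 in R 4.3.3, with no covariate. Two-sided p-values were adjusted (Benjamini-Hochberg) across the tested genes. A gene was called at an adjusted p under 0.05. CPM are on the TMM scale, and a standard error is the log2 fold change divided by the square root of F. Ratios of subunits used counts plus 0.5 on the log2 scale and an exact permutation test. For neighbours, genes were placed by RefSeq (25116 of 25330 symbols matched). Each gene's offset was shifted per library by the median deviation of up to 10 nearest tested genes on either side, with at least 10 in all.

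Values in every library were given for called members, the catalytic subunits and the extremes of each particle, and by range for others. Of the other lists, called genes, PSMB8 to PSMB10 and NFE2L1 were named, except that some called genes are counted but not reported here. The members and lists were chosen with earlier results of these data known. Nothing says that passages were separate cultures from the start, so p-values measure the spread between these samples. Alternatives were DESeq2 1.42.0, limma-voom (limma 3.58.1), RLE factors, library size only, other filters, a replicate block, neighbours subtracted, limma on the deposited log2 CPM, and each library left out in turn.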

Additional observations from a re-analysis of the deposited data

How the results depend on the processing

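Medians of both particles stayed below 0 in the fit reported and its alternatives, from -0.16 to -0.07 for the core and from -0.11 to -0.02 for the regulatory particle. The value furthest from the main one for the core was -0.07, with neighbours subtracted. The count of all called genes, 1718 as reported, was 935 with neighbours subtracted, where 804 of those called before were called again, and ran from 524 to 3430 when a library was left out. Members called higher, 0 as reported, ran from 0 to 2, and members called lower, 2 as reported, from 1 to 4, when a library was left out. With no filter on low counts 1 was lower. With the replicate number as a block 1 member was called higher (PSMD7) and 8 lower, where 21.8% of all tested genes (3099) were called. Same-numbered libraries deviated together with correlations of 0.32, 0.14 and 0.09. Replicate 1 of either group correlated negatively with replicates 2 and 3 of the other group (-0.2433 to -0.1538). Knockout replicate 2 stood at 0.1388 with control replicate 2 and 0.141 with control replicate 3. Knockout replicate 3 stood at 0.0915 and 0.0855 with them. The numbers were not taken as pairs in the main fit. Whether replicate 1 of both groups shares an effect was not tested. Signs turned for PSMB5 (-0.3046 with neighbours subtracted, -0.0059 and -0.0296 without knockout replicates 2 and 3, and up to 0.1015 with other libraries left out) and, with neighbours subtracted, for PSMB7 (0.034), PSMD7 (-0.12) and UCHL5 (0.081). The causes were not tested. Of 300 values for 20 single genes 244 kept direction and call, 39 lost the call, 27 of them with fewer libraries, 13 gained it, and 4 turned in sign with no change of call. The ratios of inducible to constitutive subunits moved by less than the spread between replicates with a library left out. The block cannot move their difference, since every replicate number occurs in both groups. Adding 1 count to counts of 338 or more could hardly move it. With neighbours subtracted they moved by more, to 0.5747 for PSMB8 to PSMB5, 0.4095 for PSMB9 to PSMB6 and 0.0806 for PSMB10 to PSMB7. Standard errors of 0.06 to 0.16 limit what can be called among members.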

Other observations

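Among the activators that open the core particle, 2 genes lay near the threshold, and they were chosen after their values were seen. PSME2, the partner of PSME1 in the interferon-induced activator, was at 0.19 on the log2 scale (edgeR adjusted p = 0.0637). PSME4, an activator of the nucleus, was at -0.20 (edgeR adjusted p = 0.0526). With neighbours subtracted PSME4 was at -0.25 (edgeR adjusted p = 0.0394) and PSME2 at -0.07 (edgeR adjusted p = 0.624). PSME1 and PSME2 lie close together on chromosome 14 (24136194 to 24138962 and 24143365 to 24146610). Subtraction can thus take away part of a change that both genes share.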
